A study of Polypterus senegalus with 8 samples.

Results

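The transcripts described here were those of the bichir pectoral fin whose level was highest at 3 days post amputation (dpa) and stood furthest above every other stage. They were chosen from assembly components, the groups of assembled transcripts that stand in for genes where no genome was used. Reads were summed over the transcripts of each component and divided by the library total to give CPM, a level scaled to a common library total. Components of at least 10 CPM at 3 dpa were ranked by the log2 ratio of CPM + 1 at 3 dpa to CPM + 1 in the next highest library, and the first 100 were taken. These 100 came from 11722 components that passed the minimum and from 94050 in all. The rule also left out 6 components by name, none of which would have been among the 100. The 4 libraries chose the members, so every comparison of their levels below is a description without a test.

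The bichir (Polypterus senegalus) is a ray-finned fish that regrows its amputated pectoral fins. The 4 mRNA libraries came from uninjured fins (0 dpa) and from fins regrowing for 3, 7 or 14 days after the outer part had been cut off with a scalpel under MS222 anaesthesia. Fish came from a pet dealer, and strain and sex are not given in the sources used here. Each stage was 1 library from pooled fin tissues, so no difference has a replicate check, and the spread between animals cannot be measured.

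Regeneration of a fin starts with closure of the wound by epidermis and the arrival of inflammatory cells. A blastema, a mass of dividing progenitor cells, then forms below the wound epidermis and rebuilds the lost part. The library at 3 dpa therefore samples tissue between injury and the outgrowth that the later libraries sample.

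The 4 libraries held between 38095865 and 43350285 reads. In bulk tissue, fewer cells of a type and less RNA per cell cannot be told apart, and this applies to every level below. Listed skeletal muscle genes, found in 11 components of at least 1 CPM on average, summed to 11204 CPM at 0 dpa and to between 689 and 792 CPM in the 3 regrowing libraries. Most of each sum came from eno3, at 8308, 595, 708 and 551 CPM at 0, 3, 7 and 14 dpa. Over the 11 components the median log2(CPM + 1) difference from 0 dpa was -3.80 at 3 dpa, -4.59 at 7 dpa and -1.74 at 14 dpa. Listed wound epidermis and keratinocyte genes, in 12 such components, summed to between 7098 and 10070.3 CPM in the 4 libraries by library totals. Most of each sum came from s100s and krt15 components. Under a trimmed mean of log ratios, another scaling, the sums were 12839, 7662, 9244 and 6120 CPM at 0, 3, 7 and 14 dpa, highest at 0 dpa. The median of all 28836 components of at least 1 CPM on average was 1.04 higher at 3 dpa than at 0 dpa on the log2(CPM + 1) scale. This shift depended on the scaling, and under a trimmed mean of log ratios it was 0.11. Differences from 0 dpa are therefore also given relative to the median of all components.

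By library totals, the 100 components rose early, fell at 7 dpa and were partly higher again at 14 dpa. Their CPM at 0 dpa ran from 0 to 685 with a median of 2.51. At 3 dpa the lowest was 10.2 CPM, the median 34.6 and the highest 1931. At 7 dpa the range was 0 to 1163 CPM with a median of 13.0, and at 14 dpa it was 5.45 to 1161 CPM with a median of 20.8. Together the 100 took 0.233%, 1.33%, 0.640% and 0.776% of all reads in the 0, 3, 7 and 14 dpa libraries. By library totals the order 3, 14, 7, 0 dpa from highest to lowest held in 83 of them. Among the 4319 other components of at least 10 CPM that were highest at 3 dpa it held in 71.1%.

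**Figure D1:**
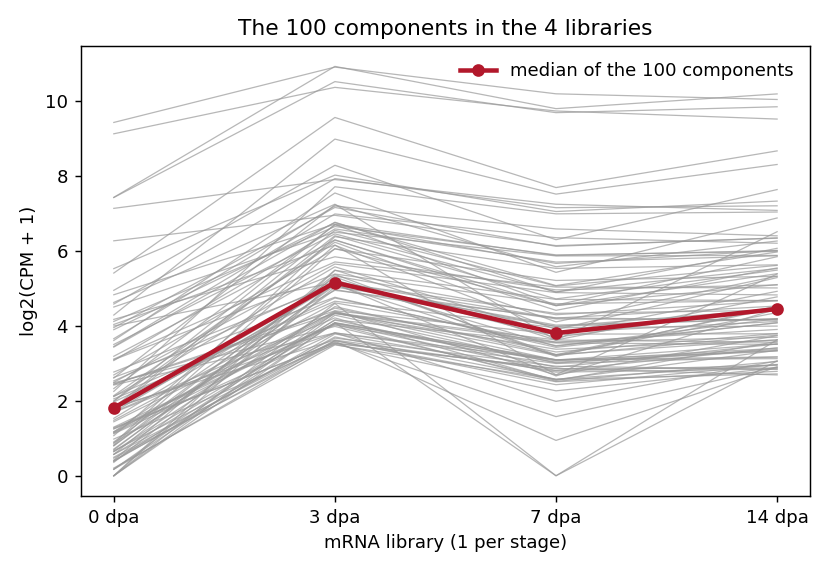
Each grey line is 1 of the 100 components, with log2(CPM + 1) on the vertical axis and the 4 mRNA libraries on the horizontal axis, and the red line joins the medians. All lines peak at 3 dpa by the choice of members. By library totals 86 are higher at 14 dpa than at 7 dpa, a count not made over all components.

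The peak itself was shallow. Over the next highest library the 100 stood 1.53- to 2.03-fold higher on the CPM + 1 scale, with a median of 1.64-fold. Only 3 of them reached 2-fold, and the largest log2 ratio was 1.02. The 95% counting interval of the ratio lay above 0 in all 100 and wholly past 1.5-fold in 58. The rule chose the members by this ratio, so nothing is read from these counts, and the intervals do not allow for that choice. These intervals cover counting error alone, because each stage was 1 library. Copies of the same molecule can be read more than once, so the intervals may be too narrow even for that error.

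The rule's cut fell in a dense part of the ranking. The component ranked 99 was at 75.9, 122.3, 69.4 and 79.7 CPM at 0, 3, 7 and 14 dpa respectively, and the last member, of rank 100, was a spi1b component described below. Just outside, the component ranked 101 was at 21.4, 73.9, 30.4 and 48.1 CPM in the same order of stages, and the one ranked 102 at 0.281, 11.8, 3.09 and 7.40 CPM. The log2 ratio was 0.61 for each of these 4.

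The same ranking run for the other libraries gave taller peaks. Of components with at least 10 CPM in the library, 4420 (37.7%) were highest at 3 dpa. For the 0, 7 and 14 dpa libraries the numbers were 2041 (27.2%), 3148 (28.6%) and 4014 (33.3%). A log2 ratio past 0.58, which is 1.5-fold, was seen in 116 components at 3 dpa, but in 1257, 406 and 429 components of the 0, 7 and 14 dpa libraries. Past 2-fold there were 3 components for 3 dpa beside 876, 155 and 173 for the others. The library at 3 dpa thus led in number of highest components and came last in the height of the peak. The second part of that statement held under each other scaling tried. The first did not: under the trimmed mean, 2701 components (26.2%) were highest at 3 dpa against 5871 (55.5%) at 0 dpa.

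**Figure D2:**
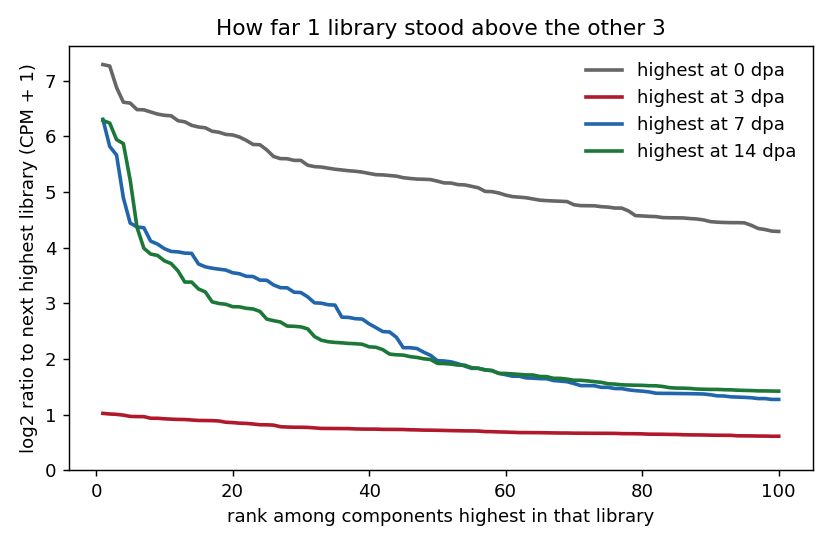
For each mRNA library, the 100 components that stood furthest above the other libraries are ordered by rank on the horizontal axis, with the log2 ratio of CPM + 1 to the next highest library on the vertical axis. The curve for 3 dpa runs from 1.02 to 0.61 and lies below the other 3 curves, which end at 4.29 (0 dpa), 1.27 (7 dpa) and 1.42 (14 dpa).

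From 0 to 3 dpa all 100 components were over 1.5-fold higher, and 87 were over 4-fold higher. Of all 28836 components of at least 1 CPM on average, 66.5% were over 1.5-fold higher and 10.9% lower in this comparison. The share past 4-fold was not counted over all components. Since the rule used the comparison, nothing is read from either member count. The members' log2 differences ran from 0.68 to 5.51 with a median of 3.21, which was 2.18 above the median of all components. Under the trimmed mean the median was 2.33, or 2.21 above that of all components. The 4319 other components of at least 10 CPM that were highest at 3 dpa had a median of 1.83 by library totals. As plain ratios of CPM, with 0 reads replaced by a floor of 3 reads, the members' median was 12.9-fold.

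The share of rising components in this comparison depended on the scaling. Of components past 1.5-fold in either direction between 0 and 3 dpa, 85.9% were higher at 3 dpa by library totals, 54.3% by the trimmed mean and 50.3% by median of ratios. Under the trimmed mean 92 of the 100 members were still over 1.5-fold higher at 3 than at 0 dpa. Of all 28156 components of at least 1 CPM on average under that scaling, 9886 were higher and 8319 lower. The starting levels of the members differed widely, with 31 under 1 CPM and 5 over 100 CPM at 0 dpa.

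Among the former, 5 components had a listed value of 0 at 0 dpa, which stands for 0 reads or 1 read. A count of 0 allows up to 3 reads, or 0.0767 CPM, in that library. The component ranked first, comp45622_c0, had 0 reads in the uninjured fin and then 608, 0 and 282 reads in the 3 regrowing libraries. It was thus seen in the 3 and 14 dpa libraries and not in the others. Its level at 3 dpa was 16.0 CPM, at least 208-fold higher than at 0 dpa if the listed 0 is 0 reads and the floor of 3 reads is used for it. This bound and those below leave out the counting error of the reads at 3 dpa. The component ranked second, comp59942_c0, had 0, 1361, 432 and 661 reads at 0, 3, 7 and 14 dpa. It was seen in all 3 regrowing libraries and was at least 466-fold higher at 3 than at 0 dpa. Neither has a name in the tables used here. The other 3 components with 0 reads at 0 dpa were at least 241- to 567-fold higher at 3 dpa.

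Among the abundant members, chosen here after their values were seen, the component ranked 44 had the highest level at 3 dpa. It started at 171 CPM in the uninjured fin, reached 1931 CPM at 3 dpa, fell to 884 CPM at 7 dpa and ended at 1161 CPM. The component ranked 52 was at 685, 1906, 1163 and 1047 CPM in the same order of stages. It was already abundant in the uninjured fin, and 14 dpa was its lowest regrowing library. The components ranked 67 and 90 reached 1457 and 1310 CPM at 3 dpa from 170 and 555 CPM at 0 dpa.

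By library totals, a few members returned to their starting level. At 14 dpa 4 of the 100 were within 1.5-fold of 0 dpa, at 7 dpa 9 were, and 3 were at both times. The clearest was the component ranked 77, at 139 CPM before amputation, then 238 CPM at 3 dpa, and 150 and 134 CPM in the later libraries. By library totals it was high at 3 dpa alone. Of all components, 63.7% had a rise past 1.5-fold from 0 to 7 dpa and 9.34% a fall. To 14 dpa the shares were 67.5% and 8.95%. Staying within 1.5-fold was thus more common among all components than in the 100. The member counts depended on the scaling. The trimmed mean left 70 members with such a rise at 7 dpa and 6 with a fall, and 81 and 5 at 14 dpa. More members than the 9 and 4 above were then within 1.5-fold. Under the trimmed mean, the components ranked 77 and 99 were highest at 0 dpa and the other 98 remained highest at 3 dpa. Under median of ratios, those ranked 41 and 90 were highest at 0 dpa as well, which left 96.

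From 3 to 7 dpa all 100 members were over 1.5-fold lower and 0 higher, beside 20% lower and 7.34% higher of all components, in a comparison that the rule used. The fall at 7 dpa was uneven. Log2 differences ran from -4.60 to -0.61 with a median of -1.11, against -0.16 for all components and -0.36 for the other components highest at 3 dpa. Of the 100, 58 were over 2-fold and 12 over 4-fold lower, folds not counted over all components. The largest falls were in the components ranked 5 and 1, both with 0 reads at 7 dpa, and in those ranked 45 and 31. Under the trimmed mean 77 of the 100 were over 1.5-fold lower at 7 than at 3 dpa. Of all 28156 components kept under that scaling, 3289 were lower and 3341 higher.

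From 3 to 14 dpa all 100 were over 1.5-fold lower as well and 0 higher, beside 1.99% lower and 7.6% higher of all components, again in a comparison that the rule used. This fall ran from -1.02 to -0.61 with a median of -0.73. In 86 of the 100 members 14 dpa was the next highest library, so there the difference is the ranking ratio with its sign reversed. The rule thus largely set this range, and nothing is read from its narrowness. Of the members, 3 were over 2-fold lower, a fold not counted over all components. The median of all components was -0.00. Under the trimmed mean all 100 were over 1.5-fold lower, beside 654 lower and 1869 higher of all 28156 components kept there. That scaling set the size of the 14 dpa library, per read and relative to 3 dpa, to 1.04. This lowers levels at 14 dpa in members already chosen as lower there, so nothing is read from the count.

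**Figure D3:**
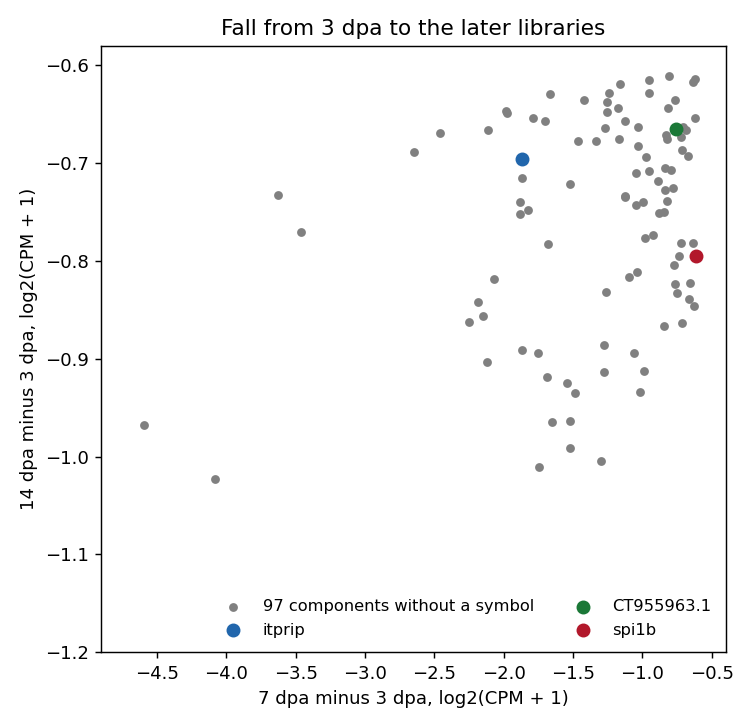
Each point is 1 of the 100 components, with the log2(CPM + 1) difference of 7 dpa from 3 dpa on the horizontal axis and of 14 dpa from 3 dpa on the vertical axis. The horizontal spread runs from -4.60 to -0.61 and the vertical from -1.02 to -0.61, and the 3 components with a symbol are coloured. The rule largely set the vertical spread.

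The next highest library was 14 dpa in 86 of the 100 and 7 dpa in 14. Among the other components highest at 3 dpa it was 14 dpa in 72.4%, 7 dpa in 26.9% and 0 dpa in 0.764%. Between 7 and 14 dpa, 37 members were over 1.5-fold higher at 14 dpa and none was over 1.5-fold lower. Over all components the shares were 24.1% higher and 7.25% lower. In 29 of the 37 the whole counting interval was past 1.5-fold. Under the trimmed mean the 37 became 25, beside 4063 higher and 3890 lower of all 28156 components kept under that scaling. In this comparison the share of higher among changed components was 76.8% by library totals, 51.1% by the trimmed mean and 48.3% by median of ratios. In the same order of scalings, the members' median log2(CPM + 1) difference of 14 from 7 dpa was 0.35, 0.11 and 0.08. That of all components was 0.18, -0.05 and -0.07.

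Most members stayed above the uninjured level. At 7 dpa 89 were over 1.5-fold higher than at 0 dpa and 2 over 1.5-fold lower, beside 63.7% and 9.34% of all components. The counts for 14 dpa were 96 and 0, beside 67.5% and 8.95%. Of the 4319 other components highest at 3 dpa, 87.7% were over 1.5-fold higher at 7 dpa and 90.3% at 14 dpa, close to the shares of the 100. The members' median difference was 1.95 at 7 dpa and 2.47 at 14 dpa, or 1.096 and 1.41 above the medians of all components. Under the trimmed mean 70 members were higher and 6 lower at 7 dpa, beside 9268 and 6759 of all 28156 components kept there. At 14 dpa the same scaling gave 81 higher and 5 lower, beside 9554 and 8284 of all 28156. Of all changed components, 87.2% were higher at 7 dpa by library totals and 57.8% by the trimmed mean, and at 14 dpa the shares were 88.3% and 53.6%. These comparisons share the 0 dpa library with that at 3 dpa.

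In a small group of members, 3 and 14 dpa were high and 0 and 7 dpa low by library totals. Besides comp45622_c0, the component ranked 5 had 0, 883, 0 and 436 reads in the order of the stages. The component ranked 31 was at 15.4, 70.1, 5.47 and 40.7 CPM in the order of the stages. That ranked 45 had 924, 5721, 486 and 3454 reads. In both of these the level at 7 dpa was below that of the uninjured fin. In the whole series 11 components had 0 reads at 0 and 7 dpa with at least 100 reads at 3 and 14 dpa. In contrast, 0 components had 0 reads at 0 and 14 dpa with at least 100 at 3 and 7 dpa, and 0 had none at 0 and 3 dpa with at least 100 at 7 and 14 dpa. In all, 84 components had at least 100 reads at 7 dpa and 0 in each other library. No such count was made for any other library alone, so the 84 do not set 7 dpa apart. The cause of these patterns was not tested.

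To describe the transcripts within a component, the reads of each component were split over its transcripts. The rule had used component sums and not these shares. The 100 components held 203 transcripts. Of the 100, 60 held 1 transcript, close to the 52.5% among all components of at least 10 CPM at 3 dpa, and the others held up to 11. In the 40 with several transcripts, 120 of 143 transcripts (83.9%) were highest at 3 dpa, and in 27 components each of them was. Nothing is read from these counts, since the sums were chosen to peak at 3 dpa. Among the 1983 other components highest at 3 dpa with several transcripts, 49.1% of transcripts were highest there. The leading transcript at 3 dpa held a median of 69.6% of its component's reads. Transcripts of 1 component can share reads, so the shares are estimates.

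Among the 40, the leading transcript was mostly the same at 3 and 14 dpa, and no such count was made for other components. Of the 40 components, 4 had another leading transcript at 14 dpa, 7 had another at 7 dpa, and 8 of the 34 with at least 20 reads at 0 dpa had another there. The component ranked 16 is an example, since its leading transcript at 3 dpa held 52.6% of reads there, with a 95% Wilson interval of 49.8 to 55.3%. It held 53.3% (49.4 to 57.0%) at 14 dpa but 20.8% (17.9 to 24.1%) at 7 dpa. At 0 dpa it held all of only 29 reads. In the component ranked 8 the shares were 66.9% (65.4 to 68.5%) at 3 dpa, 68.0% (65.8 to 70.1%) at 14 dpa and 32.5% (30.1 to 35.0%) at 7 dpa. The component ranked 8 thus used a different main transcript at 7 dpa. In that ranked 16 the 2 transcripts were close at 3 dpa (656 and 592 reads) and at 14 dpa (351 and 308 reads). Which of them led there was not resolved, and only the lower share at 7 dpa was clear of counting error.

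In the component ranked 45 the leading transcript differed at 0, 7 and 14 dpa from that at 3 dpa. Its leading transcript at 3 dpa had 2891 of 5721 reads there and 1416 of 3454 reads at 14 dpa, but 0 of 924 at 0 dpa and 0 of 486 at 7 dpa. A count of 0 of 486 allows a share of up to 0.784% by the Wilson interval. The component ranked 83 was also counted as having another leading transcript at 14 dpa. Its leading transcript at 3 dpa led there by only 4345 to 4342 reads. That transcript held 36.9% of reads at 3 dpa and 37.6% at 14 dpa, where another narrowly led, by 2914 to 2849 reads. At 0 and 7 dpa the leading transcript of 3 dpa held 81.6% and 73.7% and led.

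An isoform distance, the summed absolute difference of transcript shares between a pair of libraries divided by 2, gives the percentage of a component's reads that would have to move to another transcript. Its median over the 40 components was 2.35% for the pair of 3 and 14 dpa, 9.87% for that of 3 and 7 dpa and 8.96% when 7 and 14 dpa were compared. Among these 1983 other components the medians were 5.14%, 10.8% and 11.11%, and among all 5567 such components of at least 10 CPM at 3 dpa they were 5.54%, 11.02% and 11.4%. The 3 and 14 dpa libraries were the closest of the 3 regrowing pairs in 33 of 40 members (82.5%), in 69.5% of the other components highest at 3 dpa and in 66.8% of all. The closeness of 3 and 14 dpa was therefore also seen outside the 100. Whether the members differ from the rest in it was not tested.

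**Figure D4:**
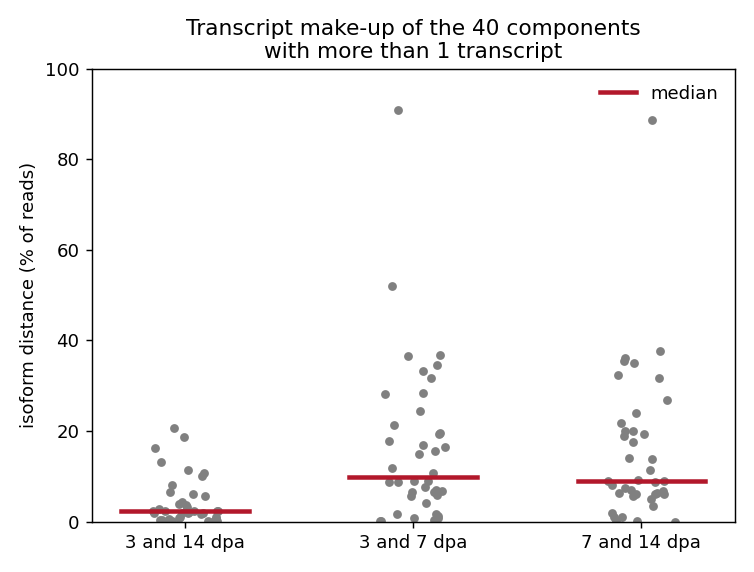
Isoform distance, in percent of a component's reads, is on the vertical axis for 3 pairs of mRNA libraries, with 1 point for each of the 40 components with more than 1 transcript and a red line at the median. The points for 3 and 14 dpa sit lowest, with a median of 2.35% beside 9.87% for 3 and 7 dpa and 8.96% in the last pair.

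Few of the 100 could be named. Names came from the zebrafish ortholog tables of the study, which were held only in part, and 4 of the 100 had an entry there, 3 of them with a symbol. Among all components of at least 10 CPM at 3 dpa 15.6% had an entry, and the tables were chosen in part on these libraries. No component could be matched to bichir genes in RefSeq by its identifier, and no genome position is given.

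Of the 3 with a symbol, spi1b codes for a form of PU.1, a transcription factor of the myeloid lineage that gives rise to macrophages and neutrophils. Its component comp51087_c0 was the last of the 100. It had 454, 5536, 4110 and 3198 reads in the order of the stages, which is 11.6, 145, 94.8 and 83.3 CPM. The level was high in all 3 regrowing libraries and 7 dpa came second. The log2(CPM + 1) difference between 3 and 0 dpa was 3.54 (95% counting interval 3.41 to 3.67). The log2 ratio of 3 dpa to the next highest library was 0.61 (0.55 to 0.67) by library totals, but 0.40 under the trimmed mean and 0.36 under median of ratios, which is less than 1.5-fold. Another spi1b component, comp60271_c0, was at 30.6, 74.9, 93.4 and 50.4 CPM and was highest at 7 dpa, and the last one stayed under 2 CPM in each library. Summed over the 3 components the symbol was at 42.5, 222, 189 and 136 CPM, highest at 3 dpa by library totals. Single components had their highest level at different stages. Per read and relative to 3 dpa, the size of the 7 dpa library was 0.860 under the trimmed mean and 0.837 under median of ratios. This raises levels at 7 dpa and leaves the sums at 3 and 7 dpa nearly level.

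For itprip, the inositol trisphosphate receptor-interacting protein, which in mammals binds the calcium channel named in it, the component comp14398_c0 was ranked 57. It had 383, 4093, 1245 and 2532 reads in the order of the stages, which is 9.79, 107, 28.7 and 66.0 CPM. It fell by 1.87 (95% counting interval from -1.96 to -1.78) on the log2(CPM + 1) scale from 3 to 7 dpa and lay 1.17 higher at 14 than at 7 dpa. Of 4 other itprip components, comp57328_c0 was at 65.3, 166, 91.3 and 147 CPM, with the same order of stages and a smaller log2 ratio of 0.18. The component comp61664_c0 was at 3.40, 31.6, 32.2 and 21.2 CPM and was level between 3 and 7 dpa. The last 2 were under 10 CPM in each library.

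The component of CT955963.1, comp59069_c0, an uncharacterized zebrafish gene, was ranked 72. It had 639, 3777, 2527 and 2386 reads at 0, 3, 7 and 14 dpa, which is 16.3, 99.1, 58.3 and 62.2 CPM. Its 7 and 14 dpa levels were alike, at a log2 difference of 0.09 (95% counting interval 0.01 to 0.17). Its log2 ratio of 3 dpa to the next highest library was 0.66 by library totals, 0.54 under the trimmed mean and 0.50 under median of ratios, the last 2 under 1.5-fold. The study listed a transcript of this component among those commonly downregulated in zebrafish and bichir. By library totals the component was higher here in each regrowing library than at 0 dpa, and the cause of this difference was not tested. The itprip and spi1b members were in the list of upregulated transcripts.

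**Figure D5:**
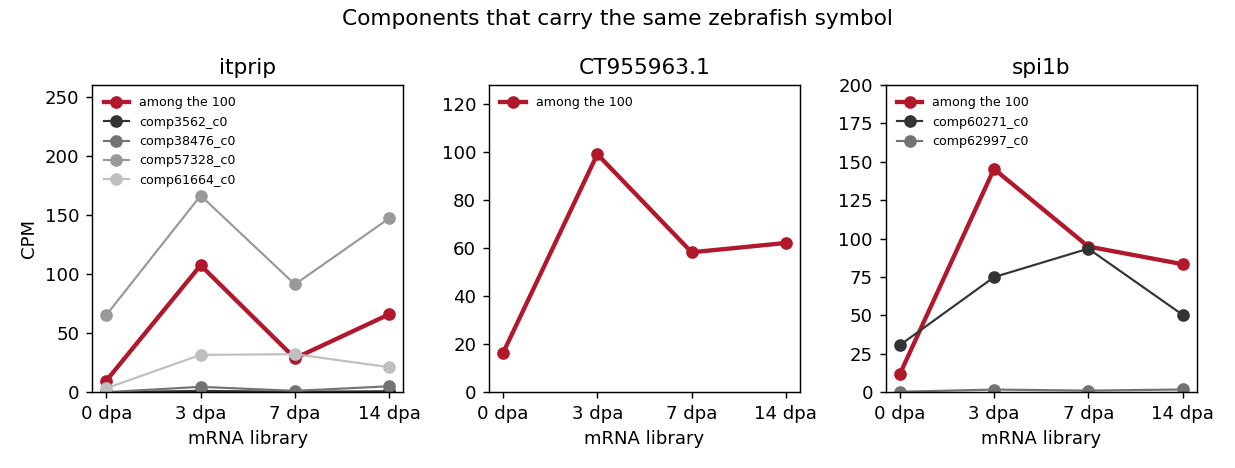
CPM (vertical axis) in the 4 mRNA libraries (horizontal axis) for every component that carries the symbol itprip, CT955963.1 or spi1b, with the component among the 100 in red. The itprip components peak at 3, 7 or 14 dpa, and the spi1b component of 93.4 CPM at 7 dpa does not follow the one among the 100.

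The fourth entry, ranked 6, is a zebrafish gene identifier without a symbol. Its component had 199, 5660, 2021 and 2903 reads at 0, 3, 7 and 14 dpa, which is 5.09, 149, 46.6 and 75.6 CPM. A second component with the same identifier was at 28.1, 125, 130 and 118 CPM and was thus nearly level over the 3 regrowing libraries.

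To describe known injury genes beside the members, 10 gene lists were matched by zebrafish symbol. Only the 3 members with a symbol could match, so a list without a member says nothing about the rest. Of the lists, 1 held a member, that of leukocyte and inflammatory genes, through spi1b. In that list 16 of 60 symbols had a named component, and 6 of its 19 components of at least 1 CPM were highest at 3 dpa, 7 at 7 dpa and 3 each in the remaining libraries. Their median log2 difference between 3 and 0 dpa was 1.04, the same as that of all components, with 11 over 1.5-fold higher and 3 lower. Summed over these 19 the level was 2496, 2834, 3904 and 2897 CPM in the order of the stages. Most of it came from cd74a at 0, 7 and 14 dpa. At 3 dpa cd74a held 1407 CPM, slightly less than the rest of the list. Without cd74a, a choice made after the values were seen, the sums were 531, 1427, 1353 and 1270 CPM by library totals. Under the trimmed mean these were 960, 1127, 1242 and 968 CPM, and under median of ratios 1006, 1095, 1240 and 948 CPM. The highest library was then 7 dpa. With cd74a kept, 0 dpa was highest under both of these scalings.

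The other lists held no member but differed in their highest library. Of 14 components of chaperone and endoplasmic reticulum stress genes, which fold proteins, 9 were highest at 3 dpa, as were 7 of 12 of wound epidermis and keratinocyte genes. Many of these leads were small. The log2 ratio to the next highest library ran from 0.006 to 0.28 in the 9 and from 0.007 to 0.61 in the 7. Of 29 components of matrix remodelling genes, such as metalloproteinases, 17 were highest at 7 dpa and 2 at 3 dpa. Of 33 components of cell cycle genes 30 were highest at 14 dpa and 1 at 3 dpa, and of 21 of growth factor and patterning genes 14 were highest at 14 dpa and 1 at 3 dpa. Of 10 components of immediate-early and stress transcription factors 1 was highest at 3 dpa, and of 4 of interferon response genes 0 were. The single erythroid component was highest at 3 dpa and 10 of 11 skeletal muscle components at 0 dpa. Over all 28836 components 12.7%, 32.5%, 22.4% and 32.3% were highest in the 0, 3, 7 and 14 dpa libraries. These counts depended on the scaling. By the trimmed mean, 4 of 14 chaperone and 2 of 12 wound epidermis components were highest at 3 dpa, and 8 of those 12 at 0 dpa. In the leukocyte list 4 of 19 were then highest at 3 dpa, 6 at 7 dpa and 8 at 0 dpa. Of the cell cycle components 21 of 33 were then highest at 14 dpa, and of the matrix remodelling components 16 of 29 at 7 dpa. The part of blood, immune or epidermal cells in the levels of the 100 was not tested.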

How the data were processed

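Libraries of polyA+ mRNA (per the labels) were sequenced by the authors on a Genome Analyzer IIx, 1 per stage from pooled fin tissue. The authors trimmed reads with Trimmomatic, assembled them with Trinity and counted reads per transcript with RSEM, then used edgeR; versions are not given in the sources used here. The authors deposited log2 values under the name log CPM. However, taking 2 to the power of the values gave whole numbers (tolerance 0.01%) in 100% of cases, with unequal sums between libraries, so the deposited log2 values were read as unscaled counts. A listed 0 was read as 0 reads.

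The table held 132496 rows, of which 4760 exact repeats were dropped, leaving 127736 transcripts, summed to components. The smallest row total was 8 reads. Totals were 39121698, 38095865, 43350285 and 38377535 reads at 0, 3, 7 and 14 dpa. Differences were taken on log2(CPM + 1), which understates changes of low components, and counted past 0.58. With 1 library per stage no test was made. Counting intervals (95%) were exact Clopper-Pearson for a pair of libraries and Wilson for shares. The background was components with a mean of at least 1 CPM. The small RNA libraries were not used here.

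Alternatives were the trimmed mean of log ratios (30% of ratios and 5% of abundances trimmed), median of ratios, totals without the 10 most abundant components, pseudocounts of 0.1 and 5 CPM, minimums of 1 and 100 CPM, thinning, single transcripts, and repeats kept. A listed 0 read as 1 read, other scalings of the gene lists and the leukocyte list without cd74a were added after the data were seen. Members with a zebrafish symbol were named, the first 2 unnamed members were given by identifier, and ranks 99 to 102 by value. Other members were picked after their values were seen. Members and gene lists were chosen with earlier results of these data known. Code was tested on simulated counts. Python 3.11.15, numpy 2.4.6, scipy 1.17.1, pandas 2.3.3 and matplotlib 3.10.9 were used.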

Additional observations from a re-analysis of the deposited data

Results flagged for a closer look

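By library totals, in 2 of the 100 components the later stages moved in opposite directions from the uninjured fin. The component ranked 31 was at a log2(CPM + 1) difference from 0 dpa of -1.34 at 7 dpa (95% counting interval -1.53 to -1.15) and 1.35 at 14 dpa (1.22 to 1.48). The component ranked 45 was at -1.01 at 7 dpa (-1.16 to -0.86) and 1.89 at 14 dpa (1.78 to 1.99). With 1 library per stage these differences between stages were not tested. They also depended on the scaling. The trimmed mean set the size of the 0 dpa library, per read and relative to 3 dpa, to 0.437 and that of 14 dpa to 1.04. This raises levels at 0 dpa, and the rise of the component ranked 31 at 14 dpa is then under 1.5-fold. Of all 28836 components of at least 1 CPM on average, 135 (0.468%) were over 1.5-fold lower at 7 dpa and over 1.5-fold higher at 14 dpa than at 0 dpa.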

How the results depend on the processing

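Of 154 values recomputed under the alternatives, 135 moved by less than their tolerance, 19 moved further and 0 changed direction. The tolerance was 1.5-fold for a count, the counting interval for a component's ratio and 0.12 for the median log2 ratio. A minimum CPM cannot change a component's ratio. Counts had no direction to change, and the first 100 were picked again under each alternative. Nothing is therefore read from the 135 or from the 0. Of the 100 as chosen, 98 were still highest at 3 dpa under the trimmed mean and 96 under median of ratios. Of the 100 components, 69 stayed among the first 100 under the trimmed mean, 65 under median of ratios, 61 with a minimum of 1 CPM, 23 with a minimum of 100 CPM and 35 when single transcripts were ranked. The number of components highest at 3 dpa, 4419 beside those left out by name, was 2701 under the trimmed mean, 2394 under median of ratios, 11644 with a minimum of 1 CPM and 687 with a minimum of 100 CPM. The median log2 ratio of the first 100, 0.72, became 0.48 with a minimum of 100 CPM and 0.91 for single transcripts. With the minimum of 100 CPM, 64 of the first 100 were over 1.5-fold lower at 7 than at 3 dpa and 35 at 14 than at 3 dpa. The ratio of comp45622_c0 was 0.76 and that of comp59942_c0 0.87 with a pseudocount of 5 CPM, and that of CT955963.1 was 0.86 for its best single transcript. A minimum changes which components can enter by its construction, and the cause of the other changes was not tested. No paired analysis was possible because each stage had 1 library and no replicate number. For the same reason no replicate could be left out. Depth limited the ratio to a median of 0.12 on the log2 scale to either side.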
